A study of Mus musculus with 17 samples.

Results

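The genes described here are 10 genes of granulocyte and monocyte differentiation, Mpo, Elane, Prtn3, Ctsg, Ms4a3, Cebpa, Cebpe, Lyz2, Csf1r and Csf3r. They were found by gene symbol among the 47069 genes of the overexpression table and joined to the other tables by Ensembl identifier, and all 10 are listed in each table. RNA was sequenced from 17 libraries of mouse fetal liver cells taken at E12.5 to E13.5 from 1 mouse strain. It is on the B6J.129(Cg) background and carries the Fezh/J allele of Gt(ROSA)26Sor, tm1.1, from which the CAG promoter drives the Cas9 nuclease (cas9*) and EGFP. The study altered Arid3a, a DNA-binding protein of the ARID family, in cells with the short GATA1 isoform (Gata1s).

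The 5 Gata1s groups hold 14 libraries and share the guide sgGata1 and doxycycline at 1 µg/mL. They differ in the second transgene and in the length of treatment. The LUC control (luciferase, 3 libraries) and the Arid3a group (3 libraries) had 48 h of doxycycline. The control hairpin sh-ctrl (3 libraries), the hairpin shArid3a (2 libraries, numbered 1 and 3) and miR-125b (3 libraries) had 10 days. The WT group (3 libraries) carried the luciferase guide sgLuc and the luciferase hairpin shLuc and had no doxycycline. Library totals were 16362439 to 19212193 counts in WT and 31339238 to 40859301 in the Gata1s groups. The labels do not say whether libraries of a group came from separate embryos or cultures, so the p-values measure the spread between these libraries, which may be technical.

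Primary, or azurophil, granules are made in promyelocytes and hold myeloperoxidase (Mpo) and the neutrophil serine proteases elastase (Elane), proteinase 3 (Prtn3) and cathepsin G (Ctsg). Secondary granules, with lactoferrin (Ltf), form later, at the myelocyte stage. Cebpa encodes the transcription factor that commits progenitors to the granulocyte and monocyte lineages, and Cebpe the one needed for secondary granules. Ms4a3 marks granulocyte-monocyte progenitors, Lyz2 encodes lysozyme of granulocytes and macrophages, and Csf1r and Csf3r are the receptors for M-CSF and G-CSF. The cells are bulk samples, in which fewer cells of a type and less RNA per cell cannot be told apart.

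In the Gata1s groups the 10 genes stood far below their WT level, least so Prtn3 in the 10-day groups. Their summed level was 12682 ± 1133 CPM (counts per 1000000 counts of the library, SD, n = 3) in WT. As a share of that WT level it was 0.261% ± 0.267 in LUC (n = 3), 0.174% ± 0.0748 in the libraries labelled Arid3a (n = 3), 0.683% ± 0.213 in sh-ctrl (n = 3), 0.396% ± 0.138 in shArid3a (n = 2) and 1.02% ± 0.278 in miR-125b (n = 3). The WT libraries differ from the others in genotype, doxycycline, second transgene and table at once, so these shares are a description and were not tested. Other markers differed too: the summed level of 15 megakaryocyte genes was 2147 to 2242 CPM in the WT libraries and 3508 to 6362 CPM in the Gata1s libraries.

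**Figure D1:**
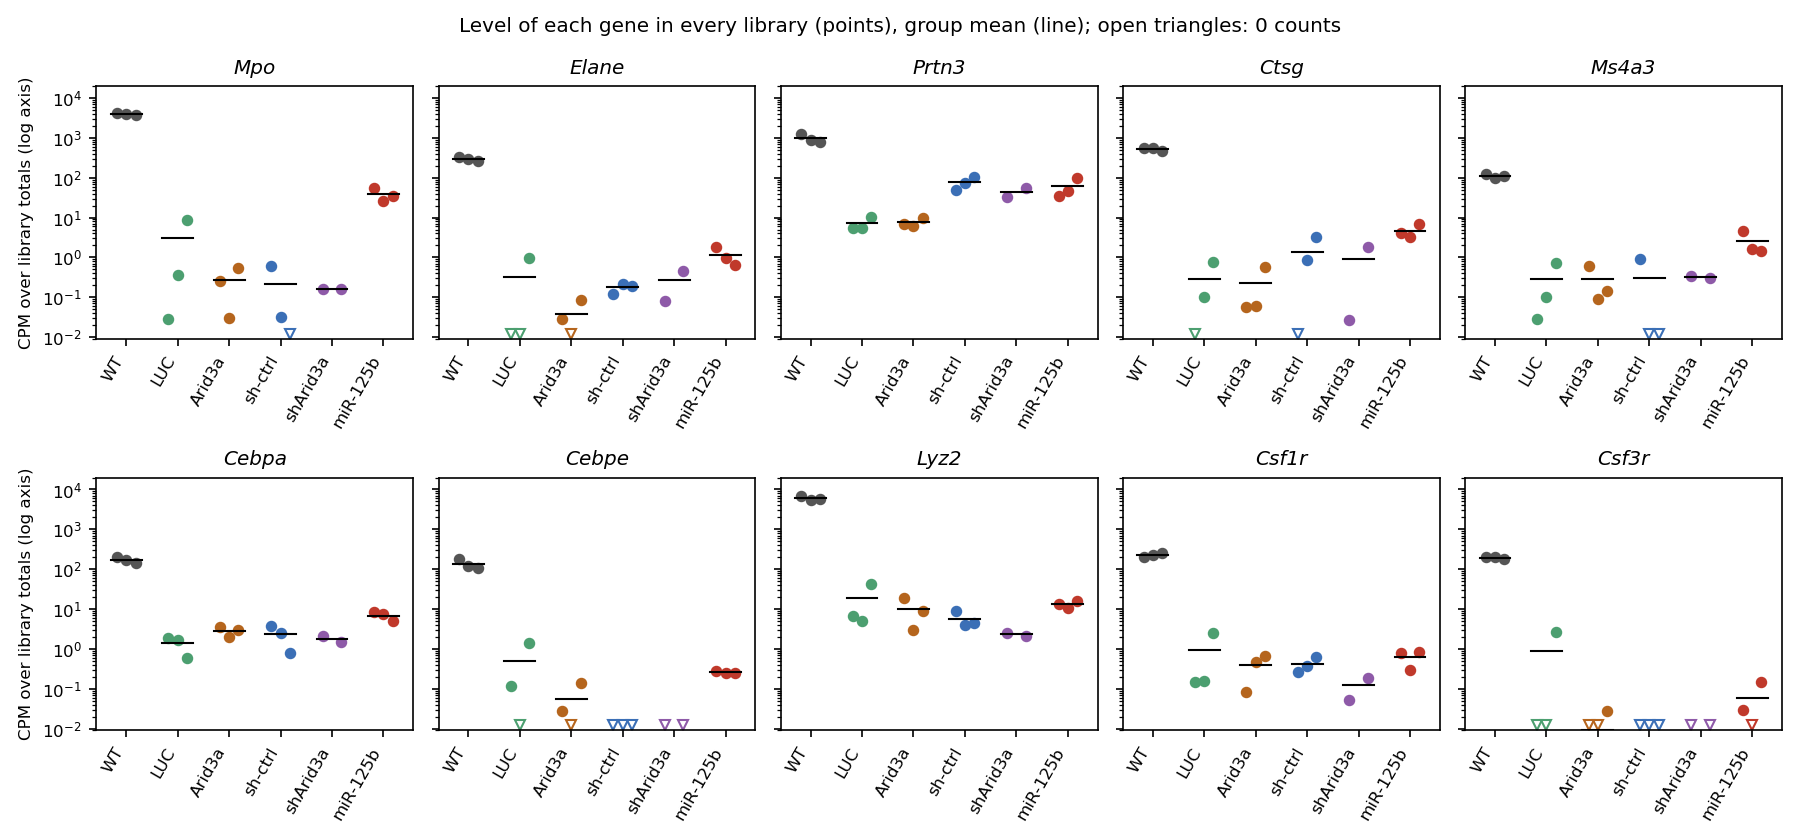
CPM of each of the 10 genes in each library (points, log axis) in the 6 groups, with the group mean as a line and libraries at 0 counts as open triangles. WT libraries stand above all Gata1s libraries for each gene, Prtn3 is at 32.5 to 107 CPM in the 10-day groups, and Mpo is at 26.2 to 55.6 CPM in miR-125b and at most 8.58 CPM in the other Gata1s libraries.

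Mpo (ENSMUSG00000009350, chromosome 11, 87793581 to 87804413, plus strand, GRCm38) was counted 67216, 75582 and 73655 times in WT. Its counts were 1, 14 and 269 in LUC, 9, 1 and 19 in the Arid3a libraries, 20, 1 and 0 in sh-ctrl, 6 and 6 in shArid3a, and 1951, 969 and 1440 in miR-125b. Every miR-125b library was above every other Gata1s library. The mean level was 39.0 ± 15.1 CPM (SD, n = 3) in miR-125b, which is 0.978% of the WT level of 3991 ± 142 CPM (n = 3), and 0.210 ± 0.337 CPM in sh-ctrl (n = 3). The lowest miR-125b library was 43.8 times as high as the highest library of the other 10-day groups.

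Elane (ENSMUSG00000020125, chromosome 10, 79886312 to 79888216, plus strand) had 5407, 5378 and 4960 counts in WT. It had 0, 0 and 31 counts in LUC, 1, 0 and 3 in the Arid3a libraries, 4, 7 and 7 in sh-ctrl, 3 and 17 in shArid3a, and 63, 35 and 27 in miR-125b. The miR-125b libraries were above the other 10-day libraries by CPM, and LUC library 3 lay within their range. Their mean of 1.13 ± 0.591 CPM (n = 3) was 0.389% of the WT level of 292 ± 36.4 CPM (n = 3).

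Ctsg (ENSMUSG00000040314, chromosome 14) had 9313, 10552 and 8853 counts in WT. It had 0, 4 and 24 in LUC, 2, 2 and 20 in the Arid3a libraries, 0, 28 and 120 in sh-ctrl, 1 and 68 in shArid3a, and 140, 117 and 285 in miR-125b. The miR-125b and sh-ctrl libraries overlapped by CPM, and the library numbered 3 was the highest of its group in each Gata1s group. The miR-125b mean of 4.71 ± 2.0 CPM (n = 3) was 0.887% of the WT level.

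Prtn3 (ENSMUSG00000057729, chromosome 10, 79874476 to 79883174, plus strand) had the highest share of its WT level among the members in each of the 10-day groups. Its counts were 20087, 16446 and 15439 in WT, 187, 213 and 327 in LUC, and 251, 210 and 339 in the Arid3a libraries. They were 1623, 2327 and 3852 in sh-ctrl, 1214 and 2071 in shArid3a, and 1197, 1762 and 4117 in miR-125b. The mean was 76.1 ± 29.3 CPM in sh-ctrl (n = 3), 44.3 ± 16.6 in shArid3a (n = 2) and 60.8 ± 35.2 in miR-125b (n = 3), or 7.85%, 4.56% and 6.28% of the WT level. The 48 h groups were lower, with 0.734% in LUC and 0.786% in the Arid3a libraries, but treatment time, transgene and table change together between those groups. Prtn3 overlaps 159 bases of the opposite-strand gene Plppr3, and the sources used here do not say whether counting used strand. Plppr3 itself had 302, 158 and 394 counts in sh-ctrl and 78, 153 and 230 in miR-125b.

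Ms4a3 (ENSMUSG00000024681, chromosome 19) had 2050, 1886 and 2116 counts in WT. It had 1, 4 and 23 in LUC, 22, 3 and 5 in the Arid3a libraries, 31, 0 and 0 in sh-ctrl, 13 and 11 in shArid3a, and 161, 60 and 58 in miR-125b. The miR-125b libraries were the 3 highest of the Gata1s libraries by CPM, and their mean was 2.54 ± 1.77 CPM (n = 3), or 2.27% of the WT level.

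Cebpa (ENSMUSG00000034957, chromosome 7) was found in all Gata1s libraries, with 3240, 3171 and 2746 counts in WT, 64, 65 and 18 in LUC, and 126, 68 and 107 in the Arid3a libraries. It had 122, 82 and 28 in sh-ctrl, 79 and 54 in shArid3a, and 291, 274 and 200 in miR-125b. Its share of the WT level was 0.805% in LUC, 1.68% in the Arid3a libraries, 1.37% in sh-ctrl, 1.05% in shArid3a and 4.04% in miR-125b. All 3 miR-125b libraries were above the other Gata1s libraries. Cebpe (ENSMUSG00000052435, chromosome 14) had 2898, 2313 and 2016 counts in WT, 4, 0 and 44 in LUC, and 1, 0 and 5 in the Arid3a libraries. It was at 0 in all 5 libraries of sh-ctrl and shArid3a, where 3 counts per library would be 0.0658% and 0.0597% of the WT level, and at 10, 9 and 10 counts in miR-125b. The miR-125b mean of 0.258 ± 0.0237 CPM (n = 3) was at least 2.90-fold higher than sh-ctrl, set against a floor of 3 counts per library. LUC library 3, at 1.40 CPM, was above the miR-125b libraries. Floors cover counting error only.

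Lyz2 (ENSMUSG00000069516, chromosome 10) was the most abundant member in WT, with 112072, 104197 and 111002 counts. It had 231, 191 and 1369 in LUC and 684, 100 and 314 in the Arid3a libraries. In the 10-day groups it was at 8.98, 3.91 and 4.36 CPM in sh-ctrl, 2.46 and 2.16 in shArid3a (92 and 80 counts), and 13.1, 10.4 and 16.3 in miR-125b (459, 384 and 668 counts). The miR-125b mean of 13.3 ± 2.99 CPM (n = 3) was 0.219% of the WT level of 6062 ± 691 CPM (n = 3). The miR-125b libraries were above the other 10-day libraries, the lowest by 1.16 times, and LUC library 3 and Arid3a library 1 were above all 3. Reads of Lyz2 can be split with its near copy Lyz1, which had 54 to 81 counts in the WT libraries.

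Csf1r (ENSMUSG00000024621, chromosome 18) had 3299, 4157 and 4938 counts in WT, 5, 6 and 77 in LUC, 3, 16 and 23 in the Arid3a libraries, 9, 12 and 22 in sh-ctrl, 2 and 7 in shArid3a, and 27, 11 and 35 in miR-125b. Csf3r (ENSMUSG00000028859, chromosome 4) had 3246, 3689 and 3488 counts in WT, 0, 0 and 81 in LUC, 0, 0 and 1 in the Arid3a libraries, 0 in all sh-ctrl and shArid3a libraries, and 1, 0 and 6 in miR-125b. Csf1r was at most 0.405% and Csf3r at most 0.448% of the WT level in a Gata1s group, in both cases in LUC. Without LUC library 3 they were at 0.0661% and 0% in LUC.

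Per kilobase of transcript length, the order in WT was Lyz2 at 4788 CPM per kb, Mpo at 1166, Prtn3 at 560, Ctsg at 530, Elane at 317, Cebpe at 109, Cebpa at 64.5, Ms4a3 at 59.5, Csf3r at 53.3 and Csf1r at 46.4. The libraries of Prtn3 and Ctsg overlapped, as did those of each neighbouring pair from Cebpa to Csf1r. In sh-ctrl Prtn3 led at 43.9 CPM per kb, followed by Lyz2 at 4.54, and Mpo stood at 0.0613. In miR-125b Prtn3 led at 35.1 CPM per kb and did not overlap with the next gene. Mpo at 11.4 and Lyz2 at 10.5 followed and overlapped with each other.

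The make-up of the summed counts differed between groups. Prtn3 was 7.58% ± 1.07 of the summed counts in WT (n = 3), 86.4% ± 8.21 in sh-ctrl (n = 3), 87.8% ± 2.40 in shArid3a (n = 2) and 45.6% ± 16.4 in miR-125b (n = 3). Mpo was 31.6% ± 1.99 in WT, 0.329% ± 0.537 in sh-ctrl, 0.342% ± 0.118 in shArid3a and 31.1% ± 12.7 in miR-125b. Lyz2 was 47.7% ± 1.68 in WT, 7.61% ± 5.76 in sh-ctrl, 4.99% ± 2.17 in shArid3a and 10.4% ± 0.511 in miR-125b. Its low share was thus common to the 10-day groups. In the 48 h groups it was 48.6% ± 11.1 in LUC (n = 3) and 41.6% ± 18.95 in the Arid3a libraries (n = 3). The miR-125b libraries spanned the WT range of Mpo and lay below that of Lyz2. Taken per kilobase, the mean share of Mpo was 15.23% in WT and 17.99% in miR-125b, and that of Lyz2 was 62.21% and 15.91%.

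**Figure D2:**
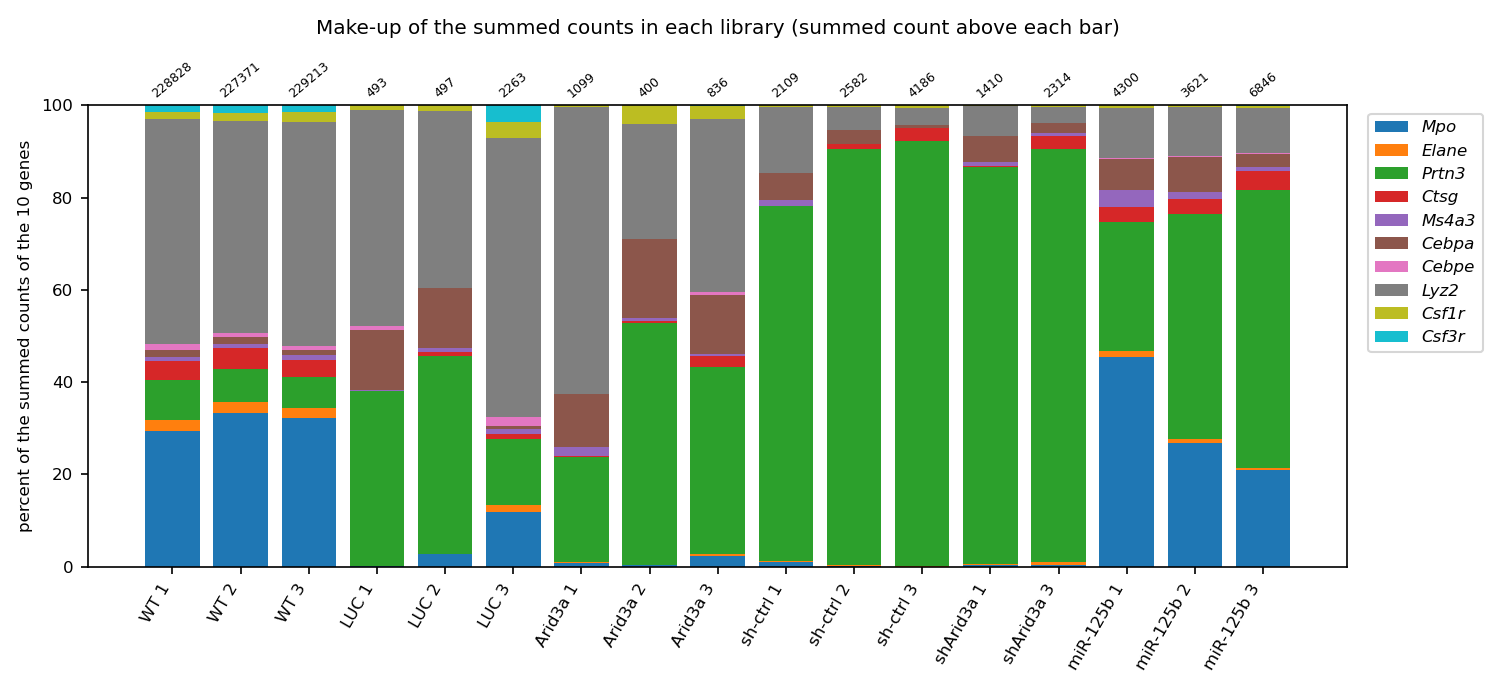
Percent of the summed counts of the 10 genes taken by each gene (stacked bars, 1 bar a library, summed count above the bar). Prtn3 fills most of each bar in sh-ctrl and shArid3a, and Mpo takes 21.0% to 45.4% in the miR-125b libraries.

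LUC library 3 stood apart from LUC libraries 1 and 2. It had the highest LUC count of 9 members, all but Cebpa, in which it was lowest with 18. It also held secondary granule genes that LUC 1 and 2 lacked or nearly lacked, among them Ltf (0, 0 and 707 counts), Ngp (0, 1 and 935), S100a9 (0, 0 and 1611) and Camp (0, 1 and 178), and the monocyte marker Ly6c2 (0, 0 and 211). The 22 monocyte and macrophage markers summed to 24.8, 19.9 and 43.0 CPM in the LUC libraries. Without LUC library 3 the summed level of the members in LUC was 0.107% of the WT level, Mpo was 0.00490% and Lyz2 0.0958%, while Cebpa was 1.04%. The part of mature granulocyte RNA in the LUC values was not tested.

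In miR-125b the primary granule genes were present with few counts of several secondary granule genes, which were also low in the other 10-day groups. Ltf had 1, 0 and 2 counts in miR-125b against 37039, 34593 and 36458 in WT. S100a8, a calcium-binding protein of mature granulocytes, had 5, 0 and 0 counts, S100a9 had 25, 0 and 1, and Camp had 0, 0 and 4. Chil3, Fcnb, Cybb, Ly6g, Retnlg, Padi4 and Lyz1 were at 0 in all 3 libraries, 7 of the 21 secondary granule and maturation genes. Of the same 21 genes, 10 were at 0 throughout sh-ctrl, 11 throughout shArid3a and 7 throughout the Arid3a libraries. The absence is thus not particular to miR-125b. The summed level of the 21 genes was 452 to 616 CPM in miR-125b, 472 to 602 in sh-ctrl and 490 to 600 in shArid3a. In the same miR-125b libraries Mpo had 969 to 1951 counts. Gfi1, a repressor that promotes the granulocyte fate, had 1512, 1608 and 1466 counts in WT and was at 0 in all 8 libraries of the 10-day groups. Irf8, a regulator of the monocyte fate, had 1948, 2129 and 2232 counts in WT and 3, 6 and 20 in miR-125b.

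**Figure D3:**
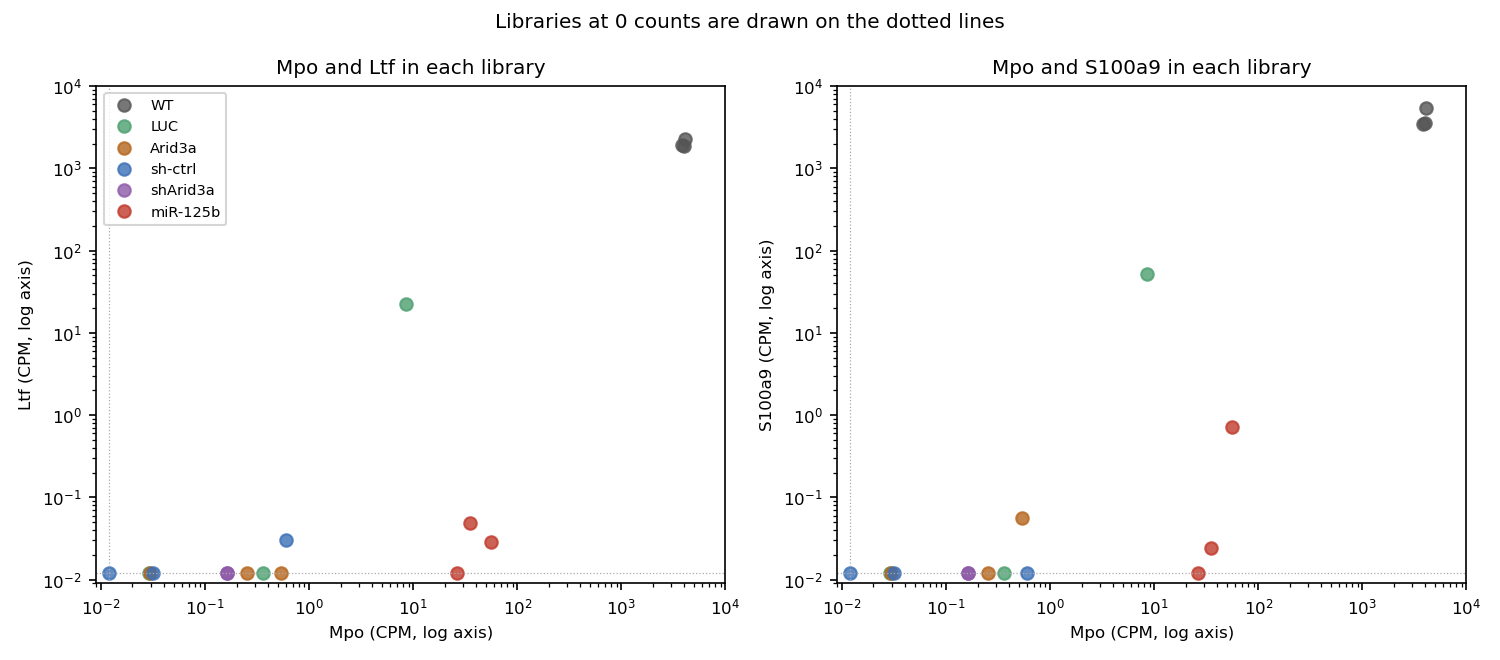
Mpo against Ltf (left) and against S100a9 (right) in CPM in each library (points, log axes, colours by group), with libraries at 0 counts on the dotted lines. The miR-125b libraries lie at 26.2 to 55.6 CPM of Mpo and under 1 CPM of Ltf and S100a9, LUC library 3 is high in both genes of each pair, and the WT libraries are at the upper right.

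The effect of miR-125b against sh-ctrl was tested with edgeR over 14004 genes, and fold changes are on the TMM scale, relative to the bulk of genes. Of the 8 members tested (Cebpe and Csf3r did not pass the filter on low counts), 4 were higher and 0 were lower. Of all genes tested, 24.4% passed in either direction, and 12.1% were higher. An unadjusted p under 0.05 was found for 5 members, against 39.8% of all genes. The median log2 fold change was 1.86 over the 8 members and -0.03 over all genes. Members that passed the filter through the miR-125b group alone had to differ, so these counts and this median do not speak for the 10 genes.

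Mpo rose by 7.73 on the log2 scale (SE 0.84, edgeR adjusted p = 0.00162, higher in 3 of 3 libraries). Elane rose by 2.87 (SE 0.76, edgeR adjusted p = 0.0248), Cebpa by 1.74 (SE 0.51, edgeR adjusted p = 0.0332) and Lyz2 by 1.39 (SE 0.35, edgeR adjusted p = 0.0204). Ms4a3, at 3.23 (SE 1.24, edgeR adjusted p = 0.0802), and Ctsg, at 1.97 (SE 1.24, edgeR adjusted p = 0.261), did not pass. With the replicate number as a block, a pairing that the labels do not give, both passed. Ms4a3 was at 3.95 (edgeR adjusted p = 0.0181) and Ctsg at 2.97 (edgeR adjusted p = 0.0417), so that 6 members were called. Csf1r, at 0.83 (SE 0.69, edgeR adjusted p = 0.398), and Prtn3, at -0.13 (SE 0.38, edgeR adjusted p = 0.827), passed in neither fit. Groups did not overlap in 5 of the 8 members tested, against 44.8% of all genes. Mpo and Elane passed the low-count filter through miR-125b, so nothing is read from this count, and their p-values carry the same limit.

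The call of Mpo held without each library in turn, with log2 fold changes of 7.09 to 11.3. The other 3 calls rested on single libraries: without sh-ctrl library 3 only Mpo was called, and 2 members were called without sh-ctrl library 2 or without miR-125b library 1. Cebpa was also not called without miR-125b library 2, nor Lyz2 without miR-125b library 3. Without sh-ctrl library 1, the only sh-ctrl library with over 1 count of Mpo or Ms4a3, the log2 fold change of Ms4a3 was 9.64 (edgeR adjusted p = 0.009) and that of Elane was 2.66 (edgeR adjusted p = 0.0654).

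**Figure D4:**
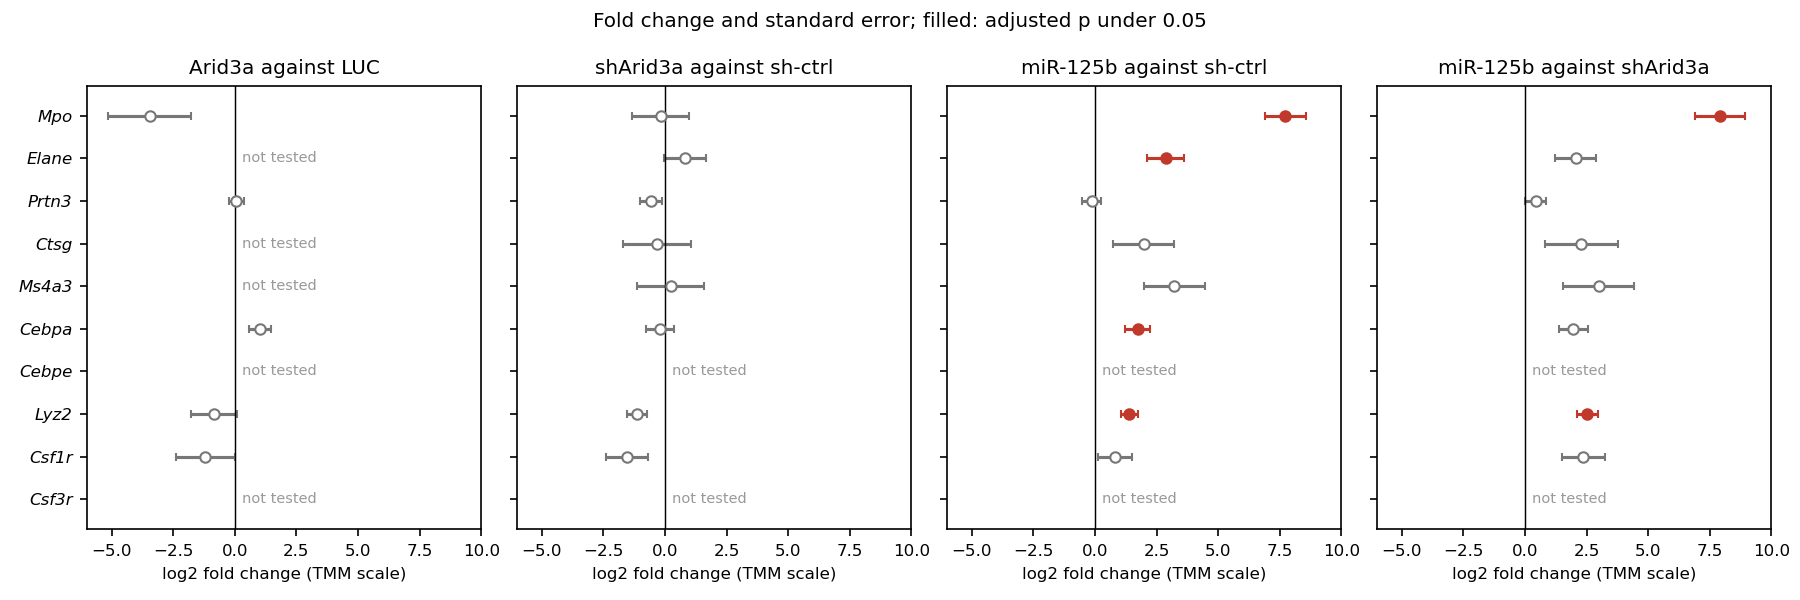
Log2 fold change with its standard error for each member in 4 comparisons (horizontal axis, TMM scale), with filled points for an edgeR adjusted p under 0.05. For miR-125b against sh-ctrl, Mpo at 7.73, Elane, Cebpa and Lyz2 are filled, and Prtn3 sits near 0 in all 4.

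miR-125b and the hairpin against Arid3a were also set against each other, a contrast without the sh-ctrl group. The low-count filter, scaling and spread were still estimated with the sh-ctrl libraries included. Of the 8 members tested, 2 were higher in miR-125b and 0 were lower, against 1.35% of all genes in either direction and 0.664% higher. Groups did not overlap in 7 of the 8, against 29.2% of all genes. Members that passed the low-count filter through miR-125b, Mpo among them, had to differ here too, and nothing is read from either count. Mpo differed by 7.91 on the log2 scale (SE 1.03, edgeR adjusted p = 0.00899) and Lyz2 by 2.52 (SE 0.43, edgeR adjusted p = 0.024). Cebpa, at 1.95 (SE 0.59, edgeR adjusted p = 0.151), and Elane, at 2.05 (SE 0.85, edgeR adjusted p = 0.299), did not pass. Without shArid3a library 1 neither was called, and the adjusted p of Mpo was 0.094. Lyz2 was also not called without shArid3a library 3 or without miR-125b library 2 or 3, where Mpo remained called.

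For shArid3a against sh-ctrl, 0 of the 8 members tested passed with edgeR, against 0.0857% of all genes (0.0357% lower), and 1 had an unadjusted p under 0.05. Groups did not overlap in 2 of the 8, Lyz2 and Csf1r, against 43.2% of all genes. The gene with the low unadjusted p was Lyz2, at -1.13 (SE 0.41, edgeR adjusted p = 0.133), which passed with DESeq2 (DESeq2 adjusted p = 0.0407). Mpo was at -0.18 (SE 1.15), Elane at 0.82 (SE 0.85), Prtn3 at -0.56 (SE 0.44) and Cebpa at -0.22 (SE 0.57). This comparison and that of miR-125b share the sh-ctrl libraries. Mpo, Elane, Ms4a3 and Csf1r had at most 17 counts in each shArid3a library, and their spread between libraries was wide, as in the 20, 1 and 0 counts of Mpo in sh-ctrl.

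The groups labelled LUC and Arid3a were compared over 13495 genes, of which 0% passed with edgeR, 2885 had an unadjusted p under 0.05 and 1359 passed with DESeq2. Of the members, 5 were tested (Mpo, Prtn3, Cebpa, Lyz2 and Csf1r), and 0 passed with edgeR, at an unadjusted p under 0.05 or with DESeq2. Mpo was at -3.46 (SE 1.69), Csf1r at -1.20 (SE 1.19) and Lyz2 at -0.87 (SE 0.93). Without LUC library 3 these became 0.41, 1.36 and 0.79. Cebpa was at 1.02 (SE 0.46, edgeR adjusted p = 0.26) and at 0.65 without LUC library 3. It was the 1 of 5 members whose groups did not overlap, against 27.6% of all genes. Prtn3 was at 0.06 (SE 0.31). Arid3a itself did not differ beyond the spread in the libraries labelled Arid3a, at 0.08 (SE 0.12, edgeR adjusted p = 0.737).

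Arid3a was lower than in sh-ctrl in both the shArid3a and the miR-125b libraries. It fell by 1.43 on the log2 scale in shArid3a (SE 0.20, edgeR adjusted p = 0.0368) and by 2.56 in miR-125b (SE 0.18, edgeR adjusted p = 0.000282). The call in shArid3a held in 9 of 16 alternatives, and the edgeR adjusted p of Arid3a was at most 0.461. The difference between shArid3a and miR-125b in Arid3a was -1.13 (SE 0.19, edgeR adjusted p = 0.024).

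MicroRNAs pair with messages mostly through bases 2 to 8, the seed. The mature sequence of miR-125b-5p (RefSeq, GRCm38.p6), the same from both of its mouse genes, is shown because it defines the sites searched, with the seed in capitals.
mmu-miR-125b-5p: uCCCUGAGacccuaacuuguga
None of the 10 members holds the match to this seed (CTCAGGG, searched on the message strand) in its annotated 3′ UTR. Such a match was found in 17.1% of 11522 tested genes, a share not matched for UTR length. The UTRs searched were 78 bases (Ctsg) to 1669 bases (Csf1r) long, and nothing is read from the absence in so few, partly short UTRs. Arid3a holds 6 matches, 2 of them with the longer match CTCAGGGA, which 6.07% of the genes hold. These 2 sites are shown for comparison, with the match in capitals.
Arid3a site: cctcctgtgcCTCAGGGAtgacagtgct
Arid3a site: gggtaactggCTCAGGGAtatagcagcc

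Promoter windows were taken from RefSeq (GRCm38.p6, 250 bases before to 50 after the start site) and found for 8 members, all but Cebpe and Csf1r. Those of Mpo and Elane, which rose in miR-125b, and of Prtn3, which did not, are shown with GAGGAA, a match to the core that PU.1 binds, in capitals where it lies on the printed strand.
Mpo, chr11:87793534-87793833, plus strand: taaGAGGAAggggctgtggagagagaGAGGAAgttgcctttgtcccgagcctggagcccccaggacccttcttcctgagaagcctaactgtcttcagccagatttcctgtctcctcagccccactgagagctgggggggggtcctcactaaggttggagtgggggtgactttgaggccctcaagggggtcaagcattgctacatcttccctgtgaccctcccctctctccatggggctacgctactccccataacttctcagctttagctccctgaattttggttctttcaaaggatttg
Elane, chr10:79886062-79886361, plus strand: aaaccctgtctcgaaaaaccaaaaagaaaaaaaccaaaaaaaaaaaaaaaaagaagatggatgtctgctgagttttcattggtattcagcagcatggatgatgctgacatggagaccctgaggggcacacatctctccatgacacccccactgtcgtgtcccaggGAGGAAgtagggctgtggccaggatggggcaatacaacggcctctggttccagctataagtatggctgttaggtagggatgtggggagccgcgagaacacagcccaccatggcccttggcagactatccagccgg
Prtn3, chr10:79879417-79879716, plus strand: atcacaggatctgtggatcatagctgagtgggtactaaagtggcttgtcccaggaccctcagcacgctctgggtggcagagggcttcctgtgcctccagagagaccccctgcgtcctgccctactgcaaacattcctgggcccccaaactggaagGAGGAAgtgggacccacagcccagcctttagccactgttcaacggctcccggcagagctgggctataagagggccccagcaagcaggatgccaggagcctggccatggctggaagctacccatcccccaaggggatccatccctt
The 3 windows each hold GAGGAA, and so do 6 of the 8 members with a window, against 28.3% of 32851 mouse promoter windows of the same 300 bases. A C/EBP-type motif, TTNNGNAA, was found in 2 of 8 (Ms4a3 and Lyz2), against 40.7%, and a GATA-type motif, AGATAA, in 0 of 8, against 11.2%. Both strands were searched. The Prtn3 window lies within the gene model counted, which starts further upstream. The windows of Mpo, Elane and Prtn3 hold neither of these 2 motifs. A match is a description, and neither it nor its absence shows what binds there.

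Elane and Prtn3 lie on the same chromosome as Arid3a, with starts at -40.73 and -52.57 kb from that of Arid3a. Of the 9 annotated genes from Prtn3 to Arid3a, Med16, R3hdm4 and Kiss1r were also tested in all 4 comparisons. They did not pass in the main edgeR fit. Over 16 alternatives in miR-125b against sh-ctrl, Med16 and R3hdm4 passed in 1 each and Kiss1r in 4. Against sh-ctrl in miR-125b, Med16 was at 0.30 (SE 0.17, edgeR adjusted p = 0.212), R3hdm4 at -0.23 (SE 0.12, edgeR adjusted p = 0.178) and Kiss1r at -1.83 (SE 0.66, edgeR adjusted p = 0.0677). With the replicate block Kiss1r passed, at -2.02 (edgeR adjusted p = 0.0292). Cfd, a serine protease gene beside Elane, had 0 to 4 counts in every library.

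**Figure D5:**
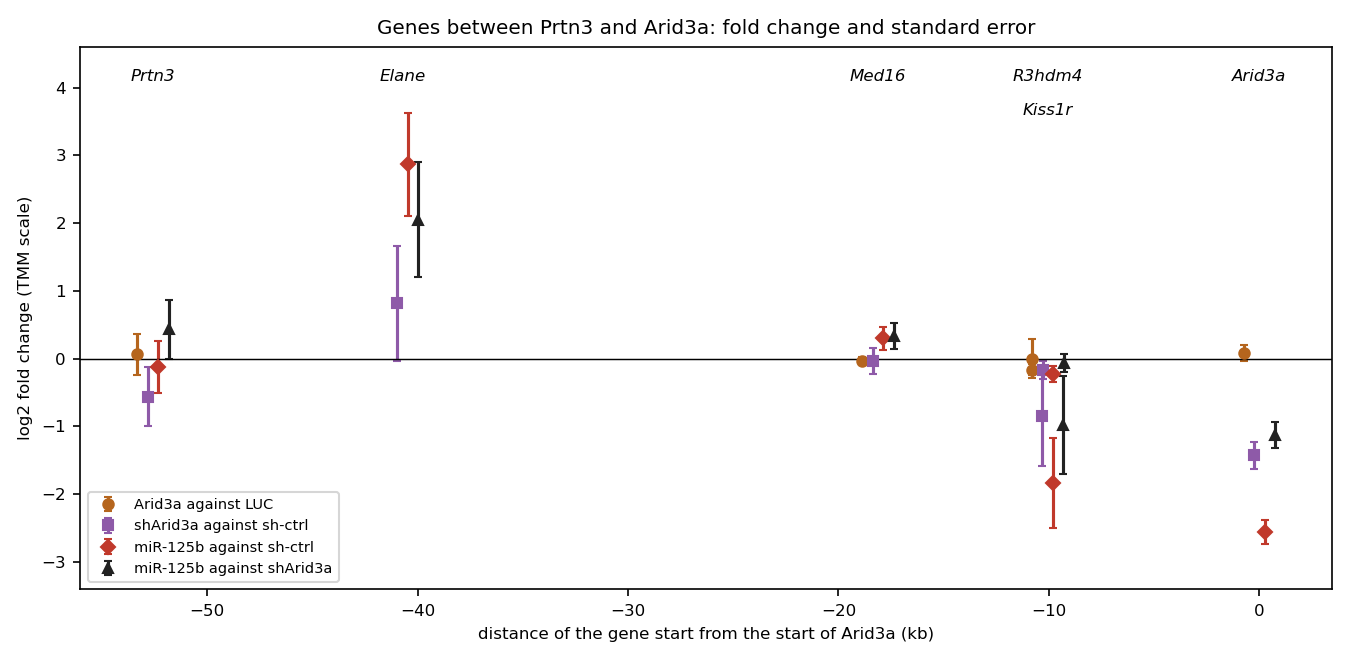
Log2 fold change with its standard error (vertical axis, TMM scale) of the tested genes from Prtn3 to Arid3a against the distance of the gene start from that of Arid3a (horizontal axis, kb, with the 4 comparisons shifted sideways by a little for legibility). Arid3a is at -2.56 and Elane at 2.87 in miR-125b against sh-ctrl, and Med16 and R3hdm4 are near 0.

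Genes that work with the granule proteins were taken from a list of 14. Of the 11 tested in miR-125b against sh-ctrl, 5 were higher and 0 lower, against 12.1% and 12.2% of all genes. This list and those below were chosen with earlier results of these data known, so their counts are a description. The median log2 fold change of the 11 was 0.45. Serpinb1a, a cytosolic inhibitor of elastase, proteinase 3 and cathepsin G, rose by 3.90 (SE 0.31, edgeR adjusted p = 0.000433). Its counts were 13572, 10395 and 11307 in miR-125b and 875, 638 and 964 in sh-ctrl, and it rose likewise against shArid3a, by 4.19 (edgeR adjusted p = 0.00188). Its level of 315 ± 62.4 CPM in miR-125b (n = 3) overlapped with that of WT, 379 ± 56.1 CPM (n = 3). Cstb, a cysteine protease inhibitor, rose by 0.68 (edgeR adjusted p = 0.0353) and Lamp1, a lysosomal membrane protein, by 0.66 (edgeR adjusted p = 0.0125). Without sh-ctrl library 3, 1 gene of the list was called, and with the replicate block 3 were higher and 1 lower.

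The next lists stand beside the same shares of all genes, 12.1% higher and 12.2% lower, and nothing is read from a count near them. Of 12 tested myeloid transcription factors, 0 passed in miR-125b against sh-ctrl with edgeR and 0 with DESeq2, 1 had an unadjusted p under 0.05, and 1 passed with the replicate block. Spi1, which encodes PU.1, had 1795, 1562 and 2322 counts in miR-125b and 1820, 1073 and 1449 in sh-ctrl. Of the 10 tested monocyte and macrophage genes 2 were higher, Cd14, a receptor for lipopolysaccharide, by 4.75 (edgeR adjusted p = 0.0108) and Cx3cr1, a chemokine receptor, by 2.83 (edgeR adjusted p = 0.0256), and 1 was lower, Lgals3, which fell by 2.02 (edgeR adjusted p = 0.0123). Of the 8 tested cytokine and receptor genes 1 was higher, Csf2rb2, by 0.80 (edgeR adjusted p = 0.0297), and 2 were higher with the replicate block. Csf2rb2 is a near copy of Csf2rb, with which reads may be split. Csf2rb was at -0.01 in miR-125b against sh-ctrl (edgeR adjusted p = 0.972). In shArid3a against sh-ctrl it was at -1.61 (edgeR adjusted p = 0.0292), a call that did not hold in all alternatives. In miR-125b against shArid3a, Csf2rb was at 1.59 (edgeR adjusted p = 0.00953) and Csf2rb2 at 1.98 (edgeR adjusted p = 0.0105).

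Markers of other cell types were counted in the same comparison, in which 12.1% of all genes were higher and 12.2% lower, so that lists with a like share called do not stand apart from all genes. Of 10 tested mast cell, basophil and eosinophil genes, 2 basophil proteases were higher, Prss34 (1887, 105 and 109 counts in miR-125b) and Mcpt8 (1372, 32 and 62), both not called in a robust fit, and the summed level of the 17 listed genes was 1268, 805 and 447 CPM in miR-125b and 560, 460 and 584 CPM in sh-ctrl. The eosinophil genes Epx, Prg3, Il5ra, Ear1, Ear2 and Ear6 were at 0 in all miR-125b libraries. The library highest in these basophil genes, miR-125b 1, was also the highest in Mpo, Elane, Ms4a3 and Cebpa by CPM. Without it Mpo was at 7.32 (edgeR adjusted p = 0.00309), Elane at 2.30 (edgeR adjusted p = 0.0798) and Cebpa at 1.53 (edgeR adjusted p = 0.0865). Of 15 megakaryocyte genes 1 was higher and 6 were lower, among them Gp1ba, a subunit of the von Willebrand factor receptor, which fell by 1.65 (edgeR adjusted p = 0.00465). Of 11 erythroid genes 3 were lower and 0 higher, and with the replicate block 6 were lower and 1 higher. Of 4 lymphoid genes 0 passed with edgeR, 1 had an unadjusted p under 0.05 and 1 passed with DESeq2. Of 8 stem and progenitor genes 0 passed with edgeR, 2 had an unadjusted p under 0.05, 1 passed with DESeq2 and 2 with the replicate block. The hepatocyte genes Afp and Apoa2 were higher, at 108 to 183 and 37 to 47 counts, while albumin (Alb) was at 0 in all miR-125b libraries. The part of these cell types in the changes of the members was not tested.

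The genes whose pattern was most like that of the members were found by the correlation of log2(CPM + 1) with the mean of the 10 members. Over all 17 libraries they were Hp, Ifitm6, Clec12a, P2ry2 and Plaur, with Pearson's r of 0.992 to 0.997 among 12312 genes. Among these libraries WT stands apart from the rest, also in depth and table. Over the 8 libraries of the 10-day groups they were Serpinb1a, Ifitm3, 1700021F05Rik, Ccdc68 and Dpysl2, with r of 0.970 to 0.991 among 11377 genes. Haptoglobin (Hp), a secreted protein, had 76, 71 and 77 counts in miR-125b, 6, 13 and 2 in sh-ctrl, 0 and 2 in shArid3a, and 6701 to 7638 in WT.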

How the data were processed

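RNA sequencing was done on 17 libraries of mouse fetal liver cells in 6 groups, taken from the labels. The authors deposited raw read counts per gene in 3 tables. Per the submitters' processing notes, fastp, HISAT2 2.0.5, featureCounts and the mm10 build were used. Use of strand is not given in the sources used here. Number 2 of the shArid3a group was not analysed here.

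CPM were computed over library totals. Each table was tested separately with edgeR 4.0.16 in R 4.3.3 (TMM, filterByExpr, quasi-likelihood F test, Benjamini-Hochberg adjusted p under 0.05 over all genes tested). DESeq2 1.42.0, other scalings and filters, and fits without each library were alternatives. WT was described and not tested against other groups. A floor of 3 counts per library was used, and it covers counting error only. On simulated counts for miR-125b against sh-ctrl (14004 genes), 47% of 100 genes changed by 1 on the log2 scale and 75% of 100 changed by 2 were recovered. The members and the 11 other lists were chosen with earlier results of these data known. Named were the members, Arid3a and Gata1, tested genes from Prtn3 to Arid3a, up to 3 called genes with the smallest adjusted p of each list, and the 5 genes most like the members in pattern over each set of libraries. Other genes named for their counts were chosen after their values were seen. The test of the secondary granule list is not reported here. Gata1, a check of the labels, was called in no comparison by the main edgeR fit. With the replicate block it was called in miR-125b against sh-ctrl (log2 fold change -0.47, edgeR adjusted p = 0.046). In Arid3a against LUC it was called in 1 of 13 alternatives, which was not the block.

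In the 10-day table the correlation of deviations from group means was 0.151 to 0.431 in same-numbered pairs of libraries. It was -0.431 to 0.364 in the other pairs, so the ranges overlap. With 2 shArid3a libraries the deviations mirror each other, and their correlations with another library have equal size and opposite sign. The number was taken to pair the libraries, as a check from the data and not from the labels, and the pairing is not certain. Blocked values are given where they change a call.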

Additional observations from a re-analysis of the deposited data

Results flagged for a closer look

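The effects of miR-125b and of shArid3a, each against sh-ctrl, differed in 2 members by the direct test between the 2 groups. Mpo differed by 7.91 on the log2 scale (edgeR adjusted p = 0.00899, miR-125b higher in 3 of 3 libraries), and Lyz2 by 2.52 (edgeR adjusted p = 0.024, higher in 3 of 3 libraries). Mpo, with 20, 1 and 0 counts in sh-ctrl and 6 and 6 in shArid3a, passed the low-count filter through miR-125b, where it is high. Its p-value carries that limit. Lyz2 was not called without miR-125b library 2 or 3, and shArid3a holds only 2 libraries.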

How the results depend on the processing

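Counts of calls over all genes moved with tool and filter. Arid3a against LUC gave 0 calls with edgeR, 1359 with DESeq2 and 71 with no low-count filter. shArid3a against sh-ctrl gave 12, and 1600 with DESeq2, 1237 with no filter, 20 with library totals, 19 with the robust fit and 0 without ribosomal RNA-like genes. miR-125b against sh-ctrl gave 3414, and miR-125b against shArid3a 189, 737 with DESeq2 and 715 with no filter. Leaving out 1 library gave 0 to 3198, 2 to 306, 734 to 3452 and 12 to 329 calls in these comparisons, in that order, and 0 to 0, 0 to 0, 1 to 5 and 0 to 2 members called.

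With no filter, 7 members were called in miR-125b against sh-ctrl and 4 in miR-125b against shArid3a. DESeq2 called 1 member in shArid3a against sh-ctrl. The replicate block gave 6, 2 and 0 members called in miR-125b against sh-ctrl, miR-125b against shArid3a and shArid3a against sh-ctrl, and moved no count of calls over all genes or over the members by over 1.5 times, unlike the counts of some marker lists given above. In the 48 h table the numbers were not taken to pair the libraries (correlations 0.158, 0.365 and 0.0084), and the block left 0 calls. Library totals in place of TMM shifted the median of all genes in miR-125b against sh-ctrl by -0.191 and the share of calls that were higher from 49.8% to 26.6%, and in shArid3a against sh-ctrl by -0.193 and from 58.3% to 40%.

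No member called with edgeR in these comparisons changed sign in the alternatives run. Uncalled members that did are given by the lowest and highest log2 fold change when 1 library was left out. In Arid3a against LUC, they were Mpo (-4.39 to 0.41), Lyz2 (-1.65 to 0.79) and Csf1r (-1.73 to 1.36), all 3 above 0 without LUC replicate 3, and Prtn3 (-0.14 to 0.44). In shArid3a against sh-ctrl, they were Mpo (-0.83 to 3.35), Elane (-0.96 to 1.60), Ctsg (-5.36 to 1.27), Ms4a3 (-0.39 to 6.62) and Cebpa (-0.66 to 0.27, and 0.078 with the replicate block). Prtn3 was at -0.69 to 0.14 in miR-125b against sh-ctrl and at -0.13 to 0.94 in miR-125b against shArid3a. Arid3a replicate 1 gave the 3198 calls and miR-125b replicate 1 the 306 when left out. The cause was not tested.

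Of 60 shares of the summed counts, 21 moved by more than the spread when taken per kilobase. The summed level of the members in miR-125b was 1.33% of WT with TMM factors over all 17 libraries, in place of 1.02%. Leaving out 1 library gave 0.107% to 0.341% in LUC, 0.141% to 0.215% in the Arid3a libraries, 0.567% to 0.776% in sh-ctrl, 0.298% to 0.493% in shArid3a and 0.870% to 1.14% in miR-125b. Depth limits the members near the floor of 3 counts per library, Cebpe and Csf3r in the 10-day groups above all.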
